A study of Mus musculus with 4 samples.

Results

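Mitochondrial ribosomal protein genes were examined in mouse embryonic stem cells that carry or lack the miR-290-295 microRNA cluster. The rule for choosing the genes was set with earlier results of these data known. It used name and annotation: protein-coding in GENCODE vM21, with a symbol that begins with Mrpl or Mrps and a number. This gave 78 of the 55421 gene identifiers in the deposited count table, 49 of the large subunit (Mrpl) and 29 of the small subunit (Mrps). All cells were E14 embryonic stem cells on a 129/Ola background, with the blastocyst as their labelled tissue, and both groups grew in serum with LIF on gelatin. The knockout group (KO, 2 libraries) lacked the cluster and the wild-type group (WT, 2 libraries) carried it. The study describes biological duplicates. Nothing says that the duplicates are separate clones, so a p-value here measures only how far these 4 libraries spread, which may be technical.

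Mitochondria carry their own ribosomes, which translate the few messenger RNAs of the mitochondrial genome, all of them for subunits of the respiratory chain and the ATP synthase. The ribosomal RNAs are transcribed inside the organelle, while every protein of the ribosome is encoded in the nucleus, made in the cytosol and imported. The large subunit holds the site of peptide bond formation and the exit tunnel, and the small subunit binds the messenger RNA and reads its codons. Symbols do not always give the place in the particle: Mrps18a and Mrps30 sit in the large subunit, and the Mrps36 protein is known as part of the 2-oxoglutarate dehydrogenase complex.

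The lost microRNAs act through bases 2 to 8 of their mature strand, the seed, which pairs with sites in the 3' untranslated region (UTR) of messenger RNAs. The 3' strands below are shown because their seeds bear on the sites described further on, with the seed in capitals (RefSeq, GRCm38.p6, plus strand of chromosome 7, given 5′ to 3′).
mmu-miR-291a-3p: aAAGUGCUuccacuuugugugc
mmu-miR-294-3p: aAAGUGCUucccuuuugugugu
mmu-miR-295-3p: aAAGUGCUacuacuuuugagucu
mmu-miR-290a-3p: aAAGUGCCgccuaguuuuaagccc
mmu-miR-291b-3p: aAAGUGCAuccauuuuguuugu
The first 3 of these share the seed AAGUGCU, and miR-290a-3p and miR-291b-3p differ from them in the last base of the seed. The match to that last base was searched for the shared seed and for miR-290a-3p, and not for miR-291b-3p.

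QuantSeq, the method used, reads transcripts close to their poly(A) end. The libraries held between 9925557 and 12726123 counts. The 7 microRNA genes on the plus strand of the cluster held 0 counts in each KO library and 88 and 39 in WT libraries 1 and 2. All 8 embryonic stem cell markers were detected, with summed levels between 3126 and 3529 CPM (counts scaled to a library total of 1000000) over the 4 libraries, and 1 of them, Klf4, was lower in KO. The 7 primitive endoderm markers summed to 13.5 and 13.7 CPM in KO and to 125 and 119 in WT, and 5 of them were lower in KO. The 5 fibroblast markers summed to 15.5 and 26.9 CPM in KO and to 41.6 and 64.0 in WT, with Col3a1 at 0 in all libraries, and all 3 that were tested (Col1a1, Col5a1 and Thy1) were lower in KO. Trophoblast markers had 3 of 6 tested and 1 higher in KO (Tfap2c, 1.78, SE 0.22), and neural markers had 4 tested and 1 higher (Pax6, 5.12, SE 0.40). The trophoblast markers summed to 391 and 241 CPM in KO and to 96.6 and 105 in WT. The neural markers summed to 89.6 and 64.7 CPM in KO and to 33.1 and 53.3 in WT. Beside these counts of markers, 7.42% of all genes tested were higher and 4.96% lower in KO (edgeR adjusted p below 0.05). The part of these other cell types in the values below was not tested, and in bulk RNA fewer cells of a type and less RNA per cell cannot be told apart.

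The mitochondrial ribosome genes moved little as a group when the cluster was absent. Of the 78 genes 77 passed the low-count filter, and 3 of these passed the test, with 1 higher in KO (Mrpl14) and 2 lower (Mrpl1 and Mrps28). Among all 14427 genes tested 12.4% passed, 7.42% higher and 4.96% lower (edgeR quasi-likelihood test, Benjamini-Hochberg adjusted p below 0.05). All 77 log2 fold changes of KO over WT lay between -0.84 and 0.69, and 70 of them (90.9%) were under 0.5 in size, against 61.3% of all genes tested. Among genes with a mean of at least 10 CPM the shares were 91.7% of members and 73.1% of all genes tested. The members are also measured more precisely than most genes, with a median standard error of 0.18 on the log2 scale against 0.27 over all genes tested. At an unadjusted p below 0.05 there were 17 of 77 members (22.1%), against 28.2% of all genes tested. When the test was limited to the 8711 genes with a mean of at least 10 CPM, 0 members were higher and 2 lower, and of those genes 7.30% were higher and 4.49% lower.

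**Figure D1:**
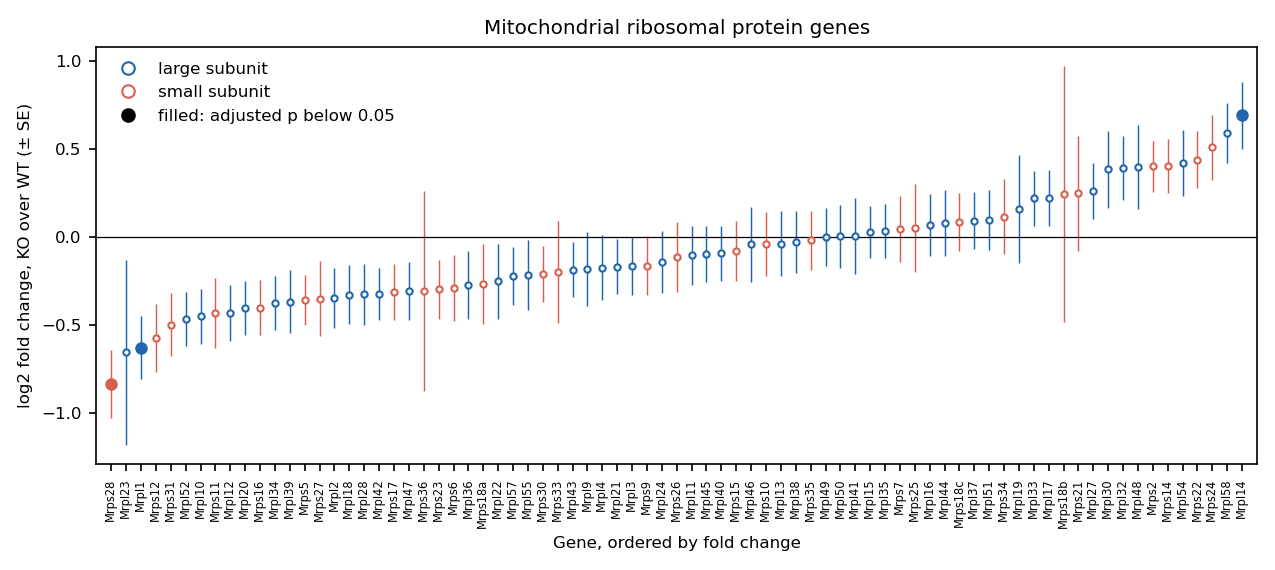
log2 fold change (KO over WT, y axis) with its standard error for the 77 tested genes in order of size (x axis), in blue for the large and red for the small subunit. Filled points are the 3 genes that passed the test, Mrps28 and Mrpl1 at the low end and Mrpl14 at the high end, and the genes of both subunits are mixed along the order.

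Most of the small differences pointed down. The median log2 fold change of the members was -0.11, with 49 of 77 below 0 (63.6%), next to a median of -0.0061 and 50.5% below 0 over all genes tested. Summed over all 78 genes the level was 6140 and 6090 CPM in KO libraries 1 and 2 and 6564 and 6519 CPM in WT libraries 1 and 2. Both KO sums were below both WT sums, with group means of 6115 ± 35.0 and 6541 ± 32.3 CPM (SD, n = 2 each) and a difference of -6.51%. Of the 77 tested members 33 had both KO libraries below both WT libraries, and 28.8% of all genes tested did. Both KO libraries were above both WT libraries in 15 members and in 29.2% of all genes tested. Together 62.3% of the members and 58.0% of all genes tested had groups that did not overlap. Counts on the mitochondrial genome took 5.08% and 4.93% of the KO libraries and 6.02% and 5.58% of the WT libraries, and with these genes left out of the library totals the difference was -7.30%. No p-value is given for a sum over genes. The 78 members together took between 0.609% and 0.656% of all counts in a library.

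For the large subunit the median log2 fold change was -0.10 (48 tested, 1 higher and 1 lower, 30 below 0), and for the small subunit it was -0.16 (29 tested, 0 higher and 1 lower, 19 below 0). The difference of these medians was 0.061. A related but not identical measure is the difference of the median log2 levels of the subunits in each library. Its SD within groups was 0.10. Over the members without exon overlap the medians were -0.11 and -0.23, with a difference of 0.13. No spread was computed for these members alone. No test of the difference was made. Without WT library 2 the medians were -0.16 and -0.26. Large subunit genes summed to 4270 and 4218 CPM in KO and 4563 and 4518 CPM in WT, a difference of -6.53%. Small subunit genes summed to 1870 and 1873 CPM in KO and 2001 and 2000.5 CPM in WT, a difference of -6.49%. The ratio of large to small was 2.28 and 2.25 in KO and 2.28 and 2.26 in WT, so the groups overlapped. With Mrps18a and Mrps30 counted in the large subunit and Mrps36 left out, the medians were -0.12 and -0.098.

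**Figure D2:**
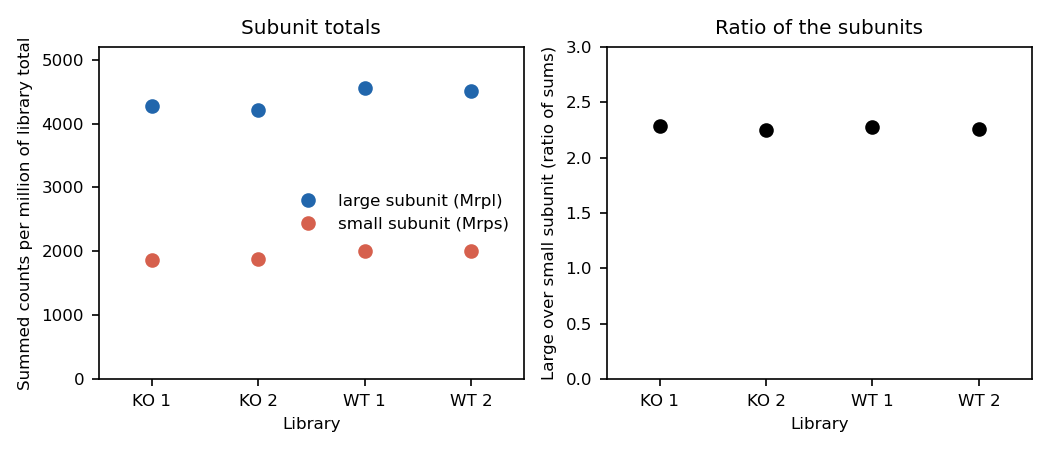
Left, summed CPM (y axis from 0) of the large (blue) and small (red) subunit genes in each library (x axis). Right, the ratio of the sums, which stayed between 2.25 and 2.28 while both sums were lower in each KO library than in each WT library.

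Among the small subunit genes the difference of greatest size was in Mrps28, which encodes a structural protein of the small subunit. Mrps28 (ENSMUSG00000040269, GRCm38 chr3:8802146-8923918, minus strand) held 31.1 and 28.0 CPM in KO libraries 1 and 2 and 56.5 and 49.1 CPM in WT libraries 1 and 2. Both KO values lay well below both WT values, and the log2 fold change was -0.84 (SE 0.19, edgeR adjusted p = 0.0229). Leaving out KO library 1 ended the call (-0.91, edgeR adjusted p = 0.101), as did leaving out KO library 2 (-0.76, adjusted p = 0.182).

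Mrpl1 encodes the protein of the L1 stalk, the mobile arm of the large subunit beside the site where spent transfer RNAs leave. Mrpl1 (ENSMUSG00000029486, chr5:96209493-96266727, plus strand) held 43.3 and 39.2 CPM in KO and 66.6 and 61.2 CPM in WT. The groups did not overlap, and the log2 fold change was -0.63 (SE 0.18, edgeR adjusted p = 0.0478). The call was lost without KO library 1 (adjusted p = 0.21), KO library 2 (adjusted p = 0.342) or WT library 1 (adjusted p = 0.0686), with log2 fold changes between -0.71 and -0.55 over the 4 fits with a library left out.

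Mrpl14 was the member that rose. Its protein lies on the face of the large subunit that meets the small subunit, where the assembly factor Malsu1 also binds. Mrpl14 (ENSMUSG00000023939, chr17:45686322-45698495, plus strand) held 80.3 and 90.7 CPM in KO and 45.0 and 61.5 CPM in WT. The KO values were above the WT values, which differed more from each other than the KO values did, and the log2 fold change was 0.69 (SE 0.19, edgeR adjusted p = 0.0456). Leaving out WT library 1 ended the call (0.49, adjusted p = 0.0854), and so did leaving out KO library 1 (0.78, adjusted p = 0.119) or KO library 2 (0.60, adjusted p = 0.27). The call was also lost when libraries were scaled by their totals alone (0.69, adjusted p = 0.054). An exon of Tmem63b on the other strand shares 106 bases with Mrpl14, outside its last exon, and Tmem63b gave -0.40 (SE 0.17, adjusted p = 0.173).

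**Figure D3:**
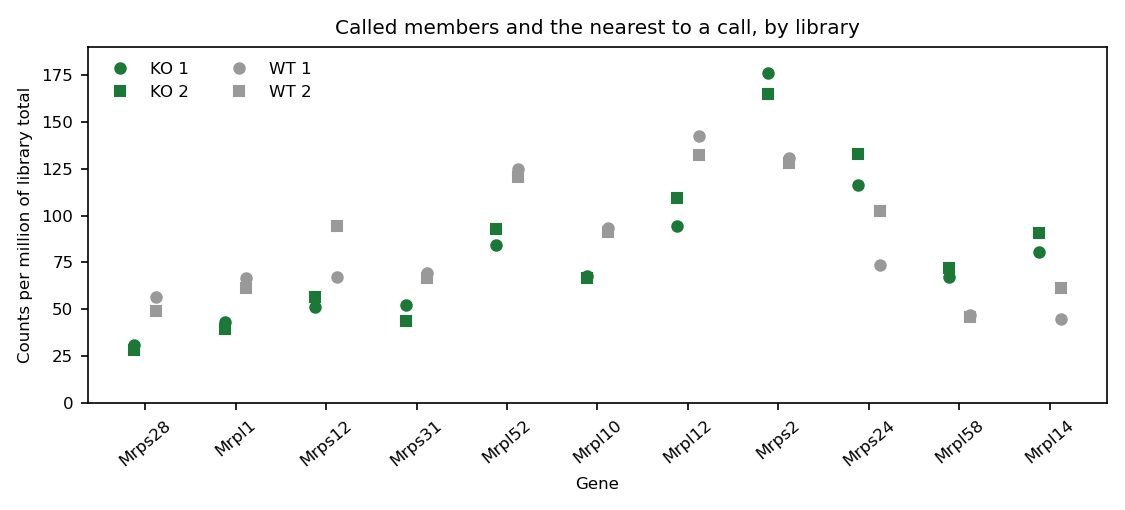
CPM (y axis from 0) in each library of the 3 genes that passed the test and the 4 genes nearest to passing in each subunit (x axis), in green for KO and grey for WT, with circles for library 1 and squares for library 2. In each of these 11 genes the KO pair and the WT pair do not overlap, and WT libraries 1 and 2 stand apart in Mrpl14, Mrps12 and Mrps24.

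The large subunit genes nearest to a call included parts of the stalk that recruits translation factors. Mrpl58 encodes a peptidyl-tRNA hydrolase built into the large subunit that can free stalled ribosomes. It held 67.4 and 71.7 CPM in KO and 46.8 and 45.7 CPM in WT, with a log2 fold change of 0.59 (SE 0.17, edgeR adjusted p = 0.0506). Without WT library 1 it gave 0.62. Mrpl52 held 84.3 and 92.9 CPM in KO and 125 and 121 CPM in WT (-0.47, SE 0.16, edgeR adjusted p = 0.0805). Mrpl10 and Mrpl12 form the base and the flexible tip of the stalk. Mrpl10 held 67.7 and 66.9 CPM in KO and 93.3 and 91.2 CPM in WT (-0.45, SE 0.16, edgeR adjusted p = 0.0927). Mrpl12 held 94.5 and 109 CPM in KO and 143 and 133 CPM in WT (-0.43, SE 0.16, edgeR adjusted p = 0.108). For all 4 of these genes the groups did not overlap. Without WT library 2, Mrpl52 gave -0.52 and Mrpl12 gave -0.51.

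In the small subunit the genes nearest to a call lay on both sides of 0. Mrps12, a protein of the decoding centre, held 51.2 and 56.6 CPM in KO and 67.2 and 94.3 CPM in WT (-0.58, SE 0.20, edgeR adjusted p = 0.0853). Without WT library 1 it gave -0.79, and without WT library 2 it gave -0.34. Mrps31 held 52.2 and 43.8 CPM in KO and 69.2 and 66.6 CPM in WT (-0.50, SE 0.18, edgeR adjusted p = 0.0987). Mrps2, a core protein of the small subunit, held 176 and 165 CPM in KO and 131 and 128 CPM in WT (0.40, SE 0.15, edgeR adjusted p = 0.107). Mrps24 lies where messenger RNA enters the ribosome. It held 116 and 133 CPM in KO and 73.5 and 102 CPM in WT (0.51, SE 0.19, edgeR adjusted p = 0.108), and gave 0.74 without WT library 2 (adjusted p = 0.00883). KO and WT did not overlap in any of these 4 genes.

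Levels spread widely among the members, on the scale of CPM, which in a 3' tag library is not divided by transcript length. The median member held 75.1 CPM as a mean over the 4 libraries, against 16.9 CPM for all genes tested, and 72 of 78 held at least 10 CPM. Mrpl15, Mrps5 and Mrpl18 had the highest values. Mrpl15 held 344 and 323 CPM in KO and 294 and 362 CPM in WT, and the groups overlapped (0.028, SE 0.15). Mrps5 held 217 and 203 CPM in KO and 275 and 264 CPM in WT, without overlap (-0.36, SE 0.14, edgeR adjusted p = 0.128). Mrpl18 held 204 and 218 CPM in KO and 300 and 231 CPM in WT, so the WT libraries lay farther apart than WT library 2 lay from KO (-0.33, SE 0.17, edgeR adjusted p = 0.238). Without WT library 2 it gave -0.52, and without WT library 1 it gave -0.11.

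At the other end, Mrpl53 held 0 counts in all 4 libraries, where 3 counts correspond to between 0.236 and 0.302 CPM. It shares 695 exonic bases on its own strand with Gm42688, which also held 0, so its level is uncertain, and a count of 0 does not show that the gene is silent. Mrps36 held 11 and 13 counts in KO and 15 and 12 in WT, and Mrps18b held 13 and 21 in KO and 23 and 4 in WT, too few to compare (-0.31 with SE 0.57 and 0.24 with SE 0.73). Mrpl23 (chosen after its values were seen) held 15 and 13 counts in KO and 22 and 18 in WT, and its processed pseudogene Mrpl23-ps1 held 12 and 13 in KO and 12 and 13 in WT, so the values of both are uncertain. Of the other members whose place in the ribosome differs from their symbol, Mrps18a gave -0.27 (SE 0.23) and Mrps30 gave -0.21 (SE 0.16). Neither passed the test.

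None of the 3 called genes carried a 7-base match to the seed AAGUGCU in its 3' UTR, and few members did. Every member had an annotated 3' UTR, with a median length of 388.5 bases in the longest form, against 1164 bases over 12484 tested genes with a 3' UTR. A 7-base match, AGCACTT or GCACTTA, was present on the sense strand of 12 members (15.4%), against 20.9% of those tested genes. The words overlap by 6 bases, and a gene with both in 1 run holds the 8-base match AGCACTTA. The 12 had a median log2 fold change of 0.046 and the members without a match had -0.17. Over all tested genes with a 3' UTR the values were 0.11 and -0.023. None of the 12 passed the test in the fit of all 4 libraries. GGCACTT, the match to miR-290a-3p, was in 7 members (8.97%), against 9.68% of those tested genes. These 7 had a median log2 fold change of 0.028, and the members without it had -0.17. For the tested genes with and without it the medians were 0.097 and -0.0068. Mrpl1, which was lower in KO, was among the 7. A match is a description of the sequence and not a measured site of binding.

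All 5 members with GCACTTA, 2 of them with the 8-base match, are shown (Mrpl30, Mrpl32 and Mrps26 were added after their values were seen), because these matches end in the A that faces the first base of the microRNA. Each is a window of 30 bases of the 3' UTR in the sense of the transcript, with the match in capitals. They lie at chr7:100548584-100548613 (Mrpl48, minus strand), chr6:81957920-81957949 (Mrpl19, minus strand), chr1:37898276-37898305 (Mrpl30, plus strand) chr13:14610435-14610464 (Mrpl32, minus strand) and chr2:130567640-130567669 (Mrps26, plus strand) of GRCm38.
Mrpl48: tacctgtacgttcAGCACTTAggaggtgga
Mrpl19: aaaacaaccaaaaAGCACTTActctcccct
Mrpl30: ttcagctcacagatGCACTTActaaggaaa
Mrpl32: aatttcatagttagGCACTTAtttaaaatc
Mrps26: caccagtaatcccgGCACTTAtaaagcaga
Mrpl48 held 17.7 and 17.0 CPM in KO and 12.4 and 14.0 CPM in WT, without overlap (0.40, SE 0.24, edgeR adjusted p = 0.32), and its processed pseudogene Mrpl48-ps held between 25 and 50 counts in each library. Rab6a shares 708 exonic bases with Mrpl48 on the other strand, outside the last exon of Mrpl48, and held 179.9 and 179.6 CPM in KO and 138 and 136 CPM in WT (0.39, SE 0.14, edgeR adjusted p = 0.108). Mrpl19 held 38.6 and 35.0 CPM in KO and 44.1 and 21.6 CPM in WT. Its WT values lay on both sides of the KO values. The log2 fold change of 0.16 (SE 0.31) became 0.79 without WT library 1 and -0.28 without WT library 2. The last exon of Mrpl19 shares 1962 bases with Gcfc2 on the other strand. Mrpl30 held 131 and 137 CPM in KO and 76.9 and 130 CPM in WT, where the low value was that of WT library 1 (0.38, SE 0.22, edgeR adjusted p = 0.297). Mrpl32 held 54.9 and 54.7 CPM in KO and 44.6 and 39.0 CPM in WT, without overlap (0.39, SE 0.18, edgeR adjusted p = 0.194). Mrps26 held 29.8 and 29.1 CPM in KO and 34.0 and 29.6 CPM in WT, with overlapping groups (-0.11, SE 0.20). These 5 members had a median log2 fold change of 0.38. The 9 members with AGCACTT, Mrpl19 and Mrpl48 among them, had 0.043. Those of the 9 without GCACTTA are not shown as windows. They gave -0.36 (Mrps5), -0.31 (Mrpl47), -0.18 (Mrpl9), -0.020 (Mrps35), 0.043 (Mrps7), 0.049 (Mrps25) and 0.093 (Mrpl51).

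The members lie on 17 chromosomes, and those on chromosome 1 carried a difference between the WT libraries. The 889 tested genes of that chromosome had a median log2 fold change of 0.27 and a median of -0.29 for WT library 1 over WT library 2. The 5 members there (Mrpl15, Mrpl30, Mrpl44, Mrps9 and Mrps14) had a median of 0.077, with 4 of 5 above 0, and -0.38 for WT library 1 over WT library 2. Mrps14, a small subunit protein, held 112 and 104 CPM in KO and 82.0 and 81.5 CPM in WT (0.40, SE 0.15, edgeR adjusted p = 0.122), so in this gene the WT libraries were alike. The part of the chromosome in these values was not tested. None of the 3 called members lies on chromosome 1.

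Exons of 33 of the 78 members overlap those of another annotated gene, and in 13 of them the last exon, where 3' tags fall, is involved. The 45 members without any overlap had a median log2 fold change of -0.18 (0 higher, 2 lower), and the 32 tested members with one had -0.041 (1 higher, 0 lower). Some partners moved far more than the member (all chosen after their values were seen). Urgcp, on the strand of Mrps24 and sharing 226 exonic bases with it, rose from 5.59 and 2.12 CPM in WT to 33.4 and 24.6 CPM in KO (2.88, SE 0.41, edgeR adjusted p = 0.0031). Ict1os, an antisense RNA that shares 2 bases with Mrpl58, held 2 and 1 counts in WT and 57 and 32 in KO (edgeR adjusted p = 0.00477), a ratio of counts per total of 26.8 with an exact 95% interval of 8.86 to 132 that covers counting error only. Mif4gd, which overlaps the last exon of Mrps7 by 119 bases on the other strand, gave 0.76 (SE 0.16, edgeR adjusted p = 0.0164), while Mrps7 gave 0.043 (SE 0.19). Slc5a3, which shares 159 exonic bases with Mrps6 on the same strand, went the other way. It was lower in KO (-0.996, SE 0.27, edgeR adjusted p = 0.0424), while Mrps6 gave -0.29 (SE 0.19). How the counting treated shared bases, and whether it used strand, is not given in the sources used here, so reads from the shared bases of such pairs cannot be told apart.

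The other genes of mitochondrial translation were taken from chosen lists, and most did not pass, as with most genes tested. For these and the lists that follow, the shares over all genes tested were 7.42% higher and 4.96% lower. An unadjusted edgeR p below 0.05 was found in 28.2% of all genes tested. Of 5 ribosomal proteins with other symbols 0 passed in edgeR, and 2 had an unadjusted p below 0.05 (median -0.10). Their sum was 574 and 578 CPM in KO and 567 and 588 CPM in WT, with overlapping groups. Ptcd3, a protein of the small subunit, held 31.7 and 44.4 CPM in KO and 52.5 and 73.1 CPM in WT (-0.72, SE 0.23, edgeR adjusted p = 0.0719), and Chchd1 gave 0.38 (SE 0.15, adjusted p = 0.134). Of 28 assembly factors 0 were higher and 1 was lower (median -0.082), and their sum of 1668 and 1524 CPM in KO overlapped that of 1704 and 1574 CPM in WT. The lower gene was Gtpbp10, a GTPase of large subunit assembly, with 4.64 and 4.08 CPM in KO and 13.5 and 9.47 CPM in WT (-1.40, SE 0.34, edgeR adjusted p = 0.0278). Next were Noa1 (-0.59, SE 0.21) and Rbfa (-0.56, SE 0.21), which did not pass. Of 15 translation factors 0 passed in edgeR, and 2 had an unadjusted p below 0.05 (median -0.24). Their summed level was 646 and 677 CPM in KO and 785 and 741 CPM in WT, without overlap, and those nearest to it were Tsfm, the elongation factor Ts, with -0.57 (SE 0.19) and Gfm2, a recycling factor, with -0.47 (SE 0.19).

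Among regulators of mitochondrial biogenesis, 1 gene passed in each direction. Of 15 tested 1 was higher, Mycn, with 205 and 182 CPM in KO and 104 and 70.0 CPM in WT (1.15, SE 0.21, edgeR adjusted p = 0.00931). Ssbp1, which binds single-stranded mitochondrial DNA, was lower, with 38.7 and 34.4 CPM in KO and 78.3 and 54.3 CPM in WT (-0.86, SE 0.22, edgeR adjusted p = 0.0345). Myc gave -1.12 (SE 0.44, edgeR adjusted p = 0.13), with 10.4 and 16.8 CPM in KO and 43.1 and 15.4 CPM in WT and overlapping groups, and Gabpa, an ETS factor subunit, gave -0.25 (SE 0.19).

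Among the messenger RNAs that these ribosomes translate, 8 of 13 passed the filter, 2 were lower and 0 higher, with a median of -0.28. The 13 summed to 45259 and 42107 CPM in KO and 47019 and 46833 CPM in WT, without overlap, a difference of -6.91%. mt-Nd2 held 3570 and 3118 CPM in KO and 4793 and 6073 CPM in WT (-0.70, SE 0.14, edgeR adjusted p = 0.0158), and mt-Nd6 held 34.7 and 20.1 CPM in KO and 64.8 and 95.5 CPM in WT (-1.54, SE 0.28, edgeR adjusted p = 0.00938). The nearest without a call were mt-Nd5 (-0.35, SE 0.13) and mt-Nd1 (-0.28, SE 0.11). mt-Co3, mt-Atp6 and mt-Nd4l were listed at 0 in all libraries, although cells depend on these genes, so the list is measured in part only.

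Cytosolic ribosomal proteins are the nearest group in kind. Of 77 tested 0 were higher and 4 were lower, Rps10 (-0.91), Rps24 (-0.54), Rpl8 (-0.52) and Rpl26 (-0.48), and the median was -0.017. Their sum was 102533 and 96363 CPM in KO and 102150 and 102199 CPM in WT, so the groups overlapped, while those of the 78 Mrpl and Mrps genes did not. Whether the groups of genes differ in this was not tested.

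**Figure D4:**
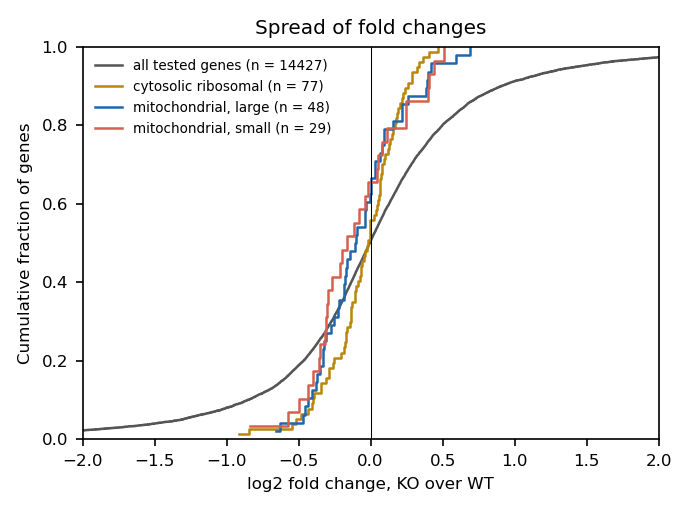
Cumulative fraction of genes (y axis) at or below each log2 fold change of KO over WT (x axis, drawn from -2 to 2) for all 14427 genes tested, 77 cytosolic ribosomal protein genes and the 48 large and 29 small subunit genes of the mitochondrial ribosome. The subunit curves run close together and are steeper than that of all genes, and their medians of -0.10 and -0.16 lie to the left of the cytosolic median of -0.017.

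As nuclear genes for 1 particle, the members were also searched for words of known activators in their promoters. The RefSeq table (GRCm38.p6, 250 bases before to 50 after each gene's start) held 69 of the 78 members. CCGGAAG, a word of ETS factors such as the Gabpa protein, was found on either strand in 26 of them (37.7%), against 20.2% of 9867 tested protein-coding genes and 9.93% of all 27025 genes in the table. CACGTG, the E-box of MYC proteins, was found in 5 (7.25%), against 11.9% of the tested genes and 8.09% of all. Neither word contains the other. The ETS word was in 34.9% of the large and 42.3% of the small subunit genes. Members with the ETS word had a median log2 fold change of -0.17 and the other matched members had -0.14. The 5 members with the E-box had -0.27 and the others -0.16. An NRF1 consensus word was in 3 members (4.35%, against 2.38% of the tested genes), which had a median of -0.18 against -0.16 for the others. A YY1 consensus word was in 5 members (7.25%, against 2.41%), which had -0.27 against -0.16. The YY1 word begins with the letters that end the ETS word, so those matches can overlap.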

How the data were processed

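Values deposited by the authors are raw counts per gene identifier, 1 table for the 4 libraries, with no scaling. The submitters' processing notes name Trim Galore and GRCm38; how reads were aligned and counted is not given in the sources used here. Names came from GENCODE vM21, which held 55240 of 55421 identifiers; the rest took 0.0025% of counts. Sample titles gave the groups. A quasi-likelihood F test in edgeR 4.0.16 (R 4.3.3, TMM scaling, filterByExpr) compared KO with WT over 14427 genes, two-sided, with Benjamini-Hochberg adjustment at 0.05; it was tested on simulated counts. SE was taken as the fold change (log2) over the root of F. CPM is scaled to the library total. Reads carry no molecular identifiers here, so intervals and floors describe counting error alone. WT library 1 over WT library 2 was taken as a difference of log2(CPM + 0.5).

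The members, lists and tests were chosen with earlier results of these data known. Members named by rule were those called, the 4 per subunit next by p, the 3 highest and 3 lowest by CPM, those with an 8-base match, Mrps18a, Mrps30, Mrps36 and any that failed the filter; of other lists, called genes and up to 2 next by p. Mrpl9, Mrpl23, Mrpl30, Mrpl32, Mrpl44, Mrpl47, Mrpl51, Mrps6, Mrps7, Mrps9, Mrps14, Mrps25, Mrps26 and Mrps35 were named after their values were seen. So were Tmem63b, Gcfc2, Gm42688, Rab6a, Urgcp, Ict1os, Mif4gd and Slc5a3. Alternatives were DESeq2 1.42.0 (size factors, Wald test), scaling by totals alone, no filter, a mean of at least 10 CPM, a block for replicate number, each library left out, subunits by place in the ribosome and members without exon overlap. Totals without genes of the mitochondrial genome, and sums with a library left out, were added after seeing the data.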

Additional observations from a re-analysis of the deposited data

How the results depend on the processing

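With 2 libraries a group the calls of single members depended on the fit, while Mrps28, Mrpl1 and Mrpl14 kept their direction in every fit run. Genes called numbered 1786 of 14427, and 2783 without a filter, 1027 at a mean CPM of at least 10 (11.8% of 8711), 1008 with the replicate number as a block, and between 871 and 2488 with a library left out. Members called higher numbered 1, and 0 with library totals, at a mean CPM of at least 10 or with the block, and 2 without a filter. Without overlapping members the number was 0 in the unchanged main fit, because that removes Mrpl14 itself. This 0 therefore does not bear on how its call holds. Members called lower numbered 2, and 3 without a filter, 1 with the block and 0 to 7 with a library left out. Without either KO library no member passed, and the lone KO library is then assumed to vary like the WT pair. Without a WT library, the lone WT library is assumed to vary like the KO pair. That pair lay closer together over the members, with a median absolute log2 difference of 0.12 against 0.20 for the WT pair. The upper ends of the ranges above come from fits without a WT library, which assume this smaller spread. With a library left out the large subunit median lay between -0.16 and -0.095, the small subunit median between -0.26 and -0.093, and the difference of medians between -0.025 and 0.093. Without overlapping members that difference was 0.13.

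The summed CPM of the members differed by -6.51% and by -7.30% with library totals that leave out mitochondrial genes, and by -6.89% to -6.14% with a library left out. Signs changed in Mrpl15 (-0.012 without KO library 1, -0.10 to 0.16 over the 4 libraries), Mrpl19 (-0.28 to 0.79) and Mrps18b (-0.20 without KO library 2, -0.45 to 1.78 over the 4 libraries), none of which was called with all libraries. The cause of these changes was not tested. The sample titles do not say whether replicate numbers pair the libraries. The difference of the KO libraries and that of the WT libraries correlated with r = -0.0703 over 14427 genes, which are not independent replicates. With 1 such difference per group this cannot exclude pairing. With the replicate block Mrpl1 (-0.63, edgeR adjusted p = 0.0777) and Mrpl14 (0.70, adjusted p = 0.0585) lost their calls.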
